A study of Mus musculus with 6 samples.

Results

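The genes described here belong to the piRNA pathway and to the germ granules of male germ cells: Piwil1, Piwil2, Mov10l1, Tdrd1, Tdrd6, Tdrd9, Ddx4, Mael, Asz1 and Pld6. They were taken as every probe set to which the annotation of the array gives one of these symbols alone, which found 10 probe sets of 9 of the 10 genes among 45101 probe sets. Asz1 had 2 probe sets, the other 8 genes had 1 each, and Tdrd6 had none and was not analysed here. All 10 probe sets passed the filter on dim probe sets. Whole testes of 3 inbred mouse strains were measured on 6 oligonucleotide arrays: MRL/MpJ+/+, AKR/N and C57BL/6, with 2 mice of each strain. The mice were 8 weeks old, and the labels give no treatment or introduced allele. C57BL/6 served as the reference for the other 2 strains, which were also set against each other. The purpose was to compare testis gene expression between the strains.

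piRNAs are small RNAs of germ cells that are bound by PIWI proteins and that guide the silencing of transposons and the cleavage of other transcripts. Long precursor transcripts are unwound, cut at the surface of mitochondria, loaded onto a PIWI protein and trimmed. Much of this takes place in germ granules, which are the intermitochondrial cement of spermatocytes and the chromatoid body of round spermatids, where Tudor domain proteins hold PIWI proteins through methylated arginines. Male mice that lack one of these genes are in most cases sterile.

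The 10 genes lie on 10 different mouse chromosomes, so none is a neighbour of another. RefSeq promoters (GRCm38.p6, from 250 bases before to 50 bases after a transcript start) were available for 8 of the 10 genes, with 11 starts in all. The 3 promoters printed here, 5′ to 3′, belong to genes whose signal was higher in MRL/MpJ+/+ than in AKR/N testes: the nuclease Pld6, the PIWI protein Piwil1 and the Tudor protein Tdrd12 from the wider pathway. Capitals mark AACNG on either strand, the core letters bound by MYB proteins, because Mybl1 (A-MYB), a regulator of piRNA pathway genes in spermatocytes, is among the genes described below.
Piwil1, chr5:128735996-128736295, plus strand: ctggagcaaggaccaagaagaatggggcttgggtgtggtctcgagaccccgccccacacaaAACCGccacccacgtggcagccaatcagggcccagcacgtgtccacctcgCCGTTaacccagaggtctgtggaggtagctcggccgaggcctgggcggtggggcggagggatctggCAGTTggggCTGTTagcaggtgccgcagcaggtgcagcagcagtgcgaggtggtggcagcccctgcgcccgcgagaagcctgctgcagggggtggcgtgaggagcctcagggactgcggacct
Pld6, chr11:59787608-59787907, minus strand: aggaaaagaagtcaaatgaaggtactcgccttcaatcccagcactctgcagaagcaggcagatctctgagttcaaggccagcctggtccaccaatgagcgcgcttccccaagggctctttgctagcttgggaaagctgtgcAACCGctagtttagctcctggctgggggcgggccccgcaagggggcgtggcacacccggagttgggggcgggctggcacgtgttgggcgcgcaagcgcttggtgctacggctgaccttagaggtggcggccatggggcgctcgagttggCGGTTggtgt
Tdrd12, chr7:35537666-35537965, minus strand: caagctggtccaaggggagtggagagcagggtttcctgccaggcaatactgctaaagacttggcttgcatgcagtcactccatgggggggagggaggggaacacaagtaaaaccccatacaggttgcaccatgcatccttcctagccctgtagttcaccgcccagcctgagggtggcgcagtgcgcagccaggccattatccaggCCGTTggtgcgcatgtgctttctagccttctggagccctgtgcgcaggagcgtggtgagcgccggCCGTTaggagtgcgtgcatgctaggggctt
All 11 promoters of these 8 genes held AACNG, where N is any base. So did 80.3% of all 32851 promoters of that length, so the letters are common. Of 41 promoters of the wider pathway genes, 29 (70.7%) held it. Another start of Pld6 and another of Tdrd12, not printed, held 3 matches and 1 match, where those printed held 2 each. Gpat2, Stk31 and Dazl also had a higher signal in MRL/MpJ+/+ than in AKR/N. The promoters of Gpat2 and Stk31 held AACNG and that of Dazl did not. The longer CAACNG, which contains AACNG, was in 3 of the 11 promoters (27.3%), those of Piwil1 and both starts of Pld6. It was in 35% of all promoters and in 39% of the 41 of the wider pathway. A match of letters is a description and not a binding site.

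The deposited intensities are linear and in arbitrary units. Fold changes are differences of log2(intensity + 16), a scale on which changes of dim probe sets come out too small, with a standard error (SE) or 95% interval. Adjusted p-values are limma's, adjusted by Benjamini-Hochberg over the 29692 probe sets tested, and a gene was called at an adjusted p under 0.05. The number of arrays limits the precision. The intensities of different probe sets were not compared with each other, since each probe set has its own response. In whole tissue, fewer cells of a type and less RNA per cell cannot be told apart.

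The testis label was borne out by its markers: Prm1, a protamine of elongating spermatids, stood at 7611 ± 341 units in MRL/MpJ+/+, 7591 ± 154 in AKR/N and 8305 ± 850 in C57BL/6 (SD, n = 2 each). The summed intensity of 16 spermatocyte markers was 27859 and 28990.4 units in MRL/MpJ+/+, 26791 and 26338 in AKR/N, and 28781 and 29269.6 in C57BL/6. For 12 round spermatid markers the sums were 16837 and 17209 units in MRL/MpJ+/+, 20834 and 21231 in AKR/N, and 21350.4 and 19546 in C57BL/6. The AKR/N arrays had the lowest sums for spermatocyte markers and the MRL/MpJ+/+ arrays for round spermatid markers, and single markers moved by more than the sums. In each sum the bright genes weigh most. Among spermatocyte markers, Ldhc had means of 8203, 7964 and 8914 units in MRL/MpJ+/+, AKR/N and C57BL/6. Among Leydig cell markers, Cyp17a1 had means of 3334, 3353 and 1872 units in that order. In AKR/N against C57BL/6, 5 of 16 spermatocyte markers were called lower. Among them were the synaptonemal complex gene Sycp1, by 1.10, and the cohesin gene Smc1b, by 1.09 on the log2 scale. A further 2 were called higher, Meiob by 0.81 and Syce2 by 0.38, and 12 of the 16 values were below 0. In MRL/MpJ+/+ 3 rose and 3 fell against C57BL/6, and 6 rose and none fell against AKR/N. Of 12 round spermatid markers, 7 were called lower in MRL/MpJ+/+ against C57BL/6 and 8 against AKR/N. All 12 values were below 0 in both comparisons. Of all genes tested, 6.11% and 5.06% were called lower there. Sums of 9 of 10 spermatogonial markers were 1663 to 1714 units in MRL/MpJ+/+, 1551 to 1607 in AKR/N and 1471 to 1549 in C57BL/6, and those of 12 elongating spermatid markers 64897 to 71384, 69339 to 73692 and 73832 to 79446 units in the same strains in that order, which also holds for the sums that follow. Sertoli cell markers (9 of 10 genes) summed to 8077 to 8407, 9393 to 9757 and 7921 to 7974 units, and Leydig cell markers (5 of 7 genes) to 5478 to 5676, 5414 to 5938 and 3321 to 3417 units. Markers of macrophages (6 of 6 genes) summed to 1068 to 1108, 720.3 to 737 and 624 to 654 units, and those of blood (2 of 4 genes) to 129 to 134, 124 to 126 and 92.4 to 104 units. Epididymis (2 of 5 genes) gave 23.2 to 24.1, 28.6 to 63.3 and 93.4 to 105 units, and adipose tissue (3 of 4 genes) 241 to 253, 261 to 538 and 151 to 177 units. In MRL/MpJ+/+ and in AKR/N, 4 of 5 Leydig cell markers rose against C57BL/6. The macrophage sums followed 1 gene, the receptor Fcgr3, at means of 667, 236 and 148 units; in MRL/MpJ+/+ against C57BL/6 it rose, Cd14 fell by 1.26 and 4 of the 6 values were below 0. Of the blood markers, Hbb-b2 had means of 44.4, 22.8 and 5.04 units and Alas2 of 87.4, 102 and 93.3 units. No tested marker was listed at 0 on any array. The ratio of the 3′ to the 5′ control probe set of Gapdh was 0.677 and 0.758 in MRL/MpJ+/+, 0.734 and 0.816 in AKR/N, and 0.827 and 0.79 in C57BL/6. That of beta actin was 1.59 and 1.67 in MRL/MpJ+/+, 1.56 and 1.78 in AKR/N, and 1.69 and 1.52 in C57BL/6. The part that these markers and ratios have in the results on the piRNA genes was not tested.

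Pld6 separated all 3 strains, and it was the member with the largest strain difference. Pld6, also called mitoPLD and known as Zucchini from Drosophila, is the mitochondrial nuclease that cuts piRNA precursors. Its intensity was 926 and 1003 units in MRL/MpJ+/+ testes, 502 and 536 in AKR/N testes, and 681 and 707 in C57BL/6 testes. The groups of arrays did not overlap, with C57BL/6 between the high MRL/MpJ+/+ and the low AKR/N arrays. The means were 964 ± 54.5, 519 ± 24.1 and 694 ± 18.8 units in MRL/MpJ+/+, AKR/N and C57BL/6 (SD, n = 2 each). Against C57BL/6, Pld6 rose in MRL/MpJ+/+ by 0.46 on the log2 scale (SE 0.0782, adjusted p = 0.0038), a ratio of means of 1.39. In AKR/N it fell by 0.41 against C57BL/6 (SE 0.0782, adjusted p = 0.00776), a ratio of means of 0.747. Between MRL/MpJ+/+ and AKR/N the difference was 0.87 (SE 0.0782, adjusted p = 8.26e-05), a ratio of means of 1.86. Without AKR/N replicate 1 or without C57BL/6 replicate 2, the fall in AKR/N was -0.36 or -0.38 and no longer called (adjusted p = 0.075 and 0.056). Without the trend of variance on mean level, the comparisons of MRL/MpJ+/+ and of AKR/N with C57BL/6 were not called either (adjusted p = 0.0804 and 0.105).

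**Figure D1:**
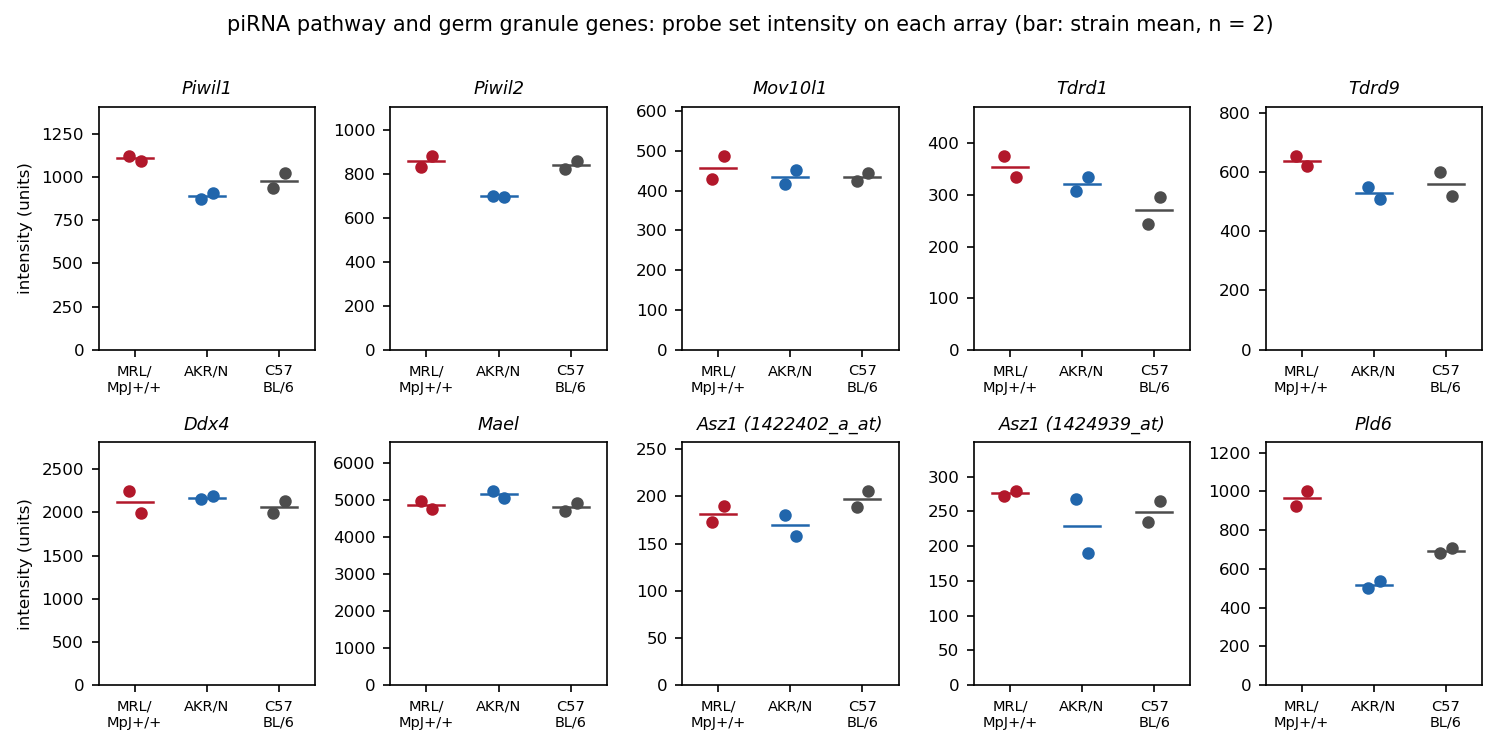
Intensity in units, on a linear axis from 0, of the 10 probe sets of the 9 genes measured, by strain; points are the arrays and bars the mean of 2 arrays. The Pld6 points form 3 separate levels, at 926 and 1003 in MRL/MpJ+/+, 502 and 536 in AKR/N, and 681 and 707 in C57BL/6, while Mael stays between 4703 and 5259 units on all arrays.

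Both PIWI genes among the members had their lowest mean signal in AKR/N. Piwil1 encodes MIWI, which carries the piRNAs of pachytene spermatocytes and round spermatids, and stood at 1124 and 1094 units in MRL/MpJ+/+, 873 and 907 in AKR/N, and 933 and 1021 in C57BL/6. The AKR/N arrays were the lowest and the MRL/MpJ+/+ arrays the highest. Piwil1 rose in MRL/MpJ+/+ against AKR/N by 0.31 (SE 0.0729, adjusted p = 0.0289). It differed by 0.18 in MRL/MpJ+/+ against C57BL/6 (95% interval 0.02 to 0.34, adjusted p = 0.156) and by -0.13 in AKR/N against C57BL/6 (-0.29 to 0.03, adjusted p = 0.315), and neither was called. In the order MRL/MpJ+/+, C57BL/6, AKR/N, neighbouring strains were therefore not told apart for Piwil1.

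Piwil2 encodes MILI, the PIWI protein that is present from fetal germ cells to round spermatids. Its intensity was 829 and 882 units in MRL/MpJ+/+, 699 and 695 in AKR/N, and 823 and 858 in C57BL/6. MRL/MpJ+/+ and C57BL/6 arrays overlapped, and the AKR/N arrays lay below both. Piwil2 fell in AKR/N by 0.26 against C57BL/6 (SE 0.0725, adjusted p = 0.0448) and was higher in MRL/MpJ+/+ than in AKR/N by 0.29 (SE 0.0725, adjusted p = 0.0392). MRL/MpJ+/+ differed from C57BL/6 by 0.03 (95% interval -0.13 to 0.19). These calls were close to the threshold. The calls of Piwil1 and Piwil2 between MRL/MpJ+/+ and AKR/N were lost without any 1 of those 4 arrays, where their adjusted p ranged from 0.111 to 0.172 and from 0.0932 to 0.228, and also when dim probe sets were kept (0.053 and 0.0593) and without the variance trend (0.23 and 0.242). The fall of Piwil2 in AKR/N was lost without any 1 of the 6 arrays (0.0595 to 0.188), and without the filter, without the trend, with median centring or with only the 4 arrays compared (0.0607 to 0.217).

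No call was made for Mov10l1, the RNA helicase that binds piRNA precursors and is needed to process them. It stood at 428 and 488 units in MRL/MpJ+/+, 416 and 451 in AKR/N, and 425 and 445 in C57BL/6, and the arrays of the 3 strains overlapped. The differences were 0.07 for MRL/MpJ+/+ against C57BL/6 (95% interval -0.13 to 0.27), -0.00494 for AKR/N against C57BL/6 (-0.21 to 0.20) and 0.08 for MRL/MpJ+/+ against AKR/N (-0.13 to 0.28).

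Among the genes of Tudor domain proteins, Tdrd1 and Tdrd9 had their highest mean signal in MRL/MpJ+/+, without a call. Tdrd1 holds MILI in the intermitochondrial cement. Its intensity was 377 and 334 units in MRL/MpJ+/+, 309 and 334 in AKR/N, and 244 and 296 in C57BL/6. Both MRL/MpJ+/+ arrays and both AKR/N arrays lay above the C57BL/6 arrays, while MRL/MpJ+/+ and AKR/N arrays overlapped. In MRL/MpJ+/+ against C57BL/6 the difference of 0.38 (SE 0.111) just missed the threshold (adjusted p = 0.057). It passed it under 5 of 16 alternatives, with adjusted p = 0.0319 after median centring, 0.0427 with a stricter filter, 0.0493 with the replicate block, 0.0466 with genes as the mean of their probe sets and 0.0382 without C57BL/6 replicate 2. AKR/N differed from C57BL/6 by 0.24 (95% interval -0.0037 to 0.49), and MRL/MpJ+/+ from AKR/N by 0.14 (-0.11 to 0.38).

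Tdrd9, an RNA helicase with a Tudor domain that is needed to silence LINE-1 elements, stood at 655 and 619 units in MRL/MpJ+/+, 551 and 507 in AKR/N, and 601 and 519 in C57BL/6. Both MRL/MpJ+/+ arrays lay above the 4 others, and AKR/N and C57BL/6 overlapped. The difference was 0.26 between MRL/MpJ+/+ and AKR/N (95% interval 0.06 to 0.46, adjusted p = 0.128), 0.19 between MRL/MpJ+/+ and C57BL/6 (-0.02 to 0.39, adjusted p = 0.248) and -0.08 between AKR/N and C57BL/6 (-0.28 to 0.13).

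The genes of the core granule proteins, Ddx4 and Mael, were not called in any comparison. Ddx4, the VASA helicase that marks germ cells, stood at 2251 and 1999 units in MRL/MpJ+/+, 2154 and 2193 in AKR/N, and 1990.2 and 2132 in C57BL/6. Its differences were 0.04 for MRL/MpJ+/+ against C57BL/6 (95% interval -0.12 to 0.20), 0.08 for AKR/N against C57BL/6 (-0.08 to 0.24) and -0.03 for MRL/MpJ+/+ against AKR/N (-0.20 to 0.13). Mael, the Maelstrom protein of the chromatoid body, stood at 4978 and 4768 units in MRL/MpJ+/+, 5259 and 5074 in AKR/N, and 4703 and 4942 in C57BL/6. Both AKR/N arrays lay above the 4 others for Mael. The differences were 0.01 for MRL/MpJ+/+ against C57BL/6 (-0.11 to 0.14), 0.10 for AKR/N against C57BL/6 (-0.03 to 0.23) and -0.08 for MRL/MpJ+/+ against AKR/N (-0.21 to 0.04).

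Asz1, also called GASZ, anchors the granule machinery to the outer membrane of mitochondria, and neither of its 2 probe sets was called. They differed in sign in MRL/MpJ+/+ against C57BL/6 and had the same sign in the other comparisons. The brighter stood at 273 and 279.8 units in MRL/MpJ+/+, 267 and 189.8 in AKR/N, and 234 and 265 in C57BL/6. The dimmer stood at 173 and 189 units in MRL/MpJ+/+, 180.2 and 158 in AKR/N, and 188 and 206 in C57BL/6. AKR/N replicate 2 was the lowest array on both. MRL/MpJ+/+ against C57BL/6 gave 0.14 on the brighter (95% interval -0.17 to 0.45) and -0.11 on the dimmer (-0.36 to 0.14), and AKR/N against C57BL/6 gave -0.14 (-0.45 to 0.17) and -0.20 (-0.45 to 0.05). Between MRL/MpJ+/+ and AKR/N the differences were 0.28 (-0.04 to 0.59) and 0.09 (-0.16 to 0.34). None of these passed the test, and without AKR/N replicate 2 the brighter probe set differed by 0.09 between AKR/N and C57BL/6.

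**Figure D2:**
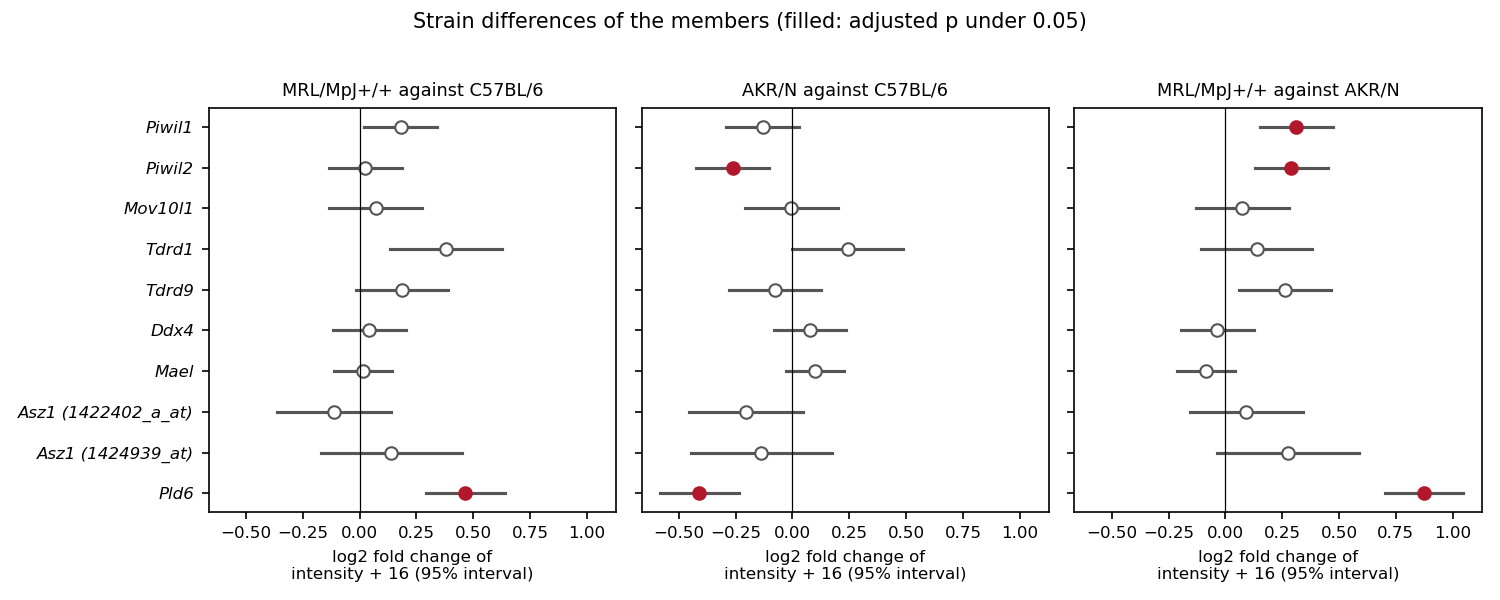
Log2 fold changes of intensity + 16 with 95% intervals for the 10 probe sets in the 3 comparisons; filled points passed an adjusted p under 0.05. Pld6 is filled in all 3 panels, at 0.46, -0.41 and 0.87, Piwil2 in 2 and Piwil1 in 1.

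Counted as genes, 1 of 9 members was called in MRL/MpJ+/+ against C57BL/6, higher in MRL/MpJ+/+, where 12.2% of the 14477 genes tested were called, 6.09% of them higher and 6.11% lower. In AKR/N against C57BL/6 2 of 9 were called, both lower in AKR/N, beside 11.9% of all genes (6.38% higher and 5.49% lower). Between MRL/MpJ+/+ and AKR/N 3 of 9 were called, all higher in MRL/MpJ+/+, beside 8.74% of all genes (3.67% higher and 5.06% lower). Of all 29692 probe sets tested, 10%, 9.97% and 6.91% were called in the 3 comparisons. With 9 genes these counts are small, and the 3 comparisons share arrays. The members were also chosen with earlier results of these data known. The counts and medians beside those of all genes are therefore a description and not a test. The median fold change of the members was 0.14 in MRL/MpJ+/+ against C57BL/6, beside a median of 0.01 over all genes. It was -0.08 in AKR/N against C57BL/6, beside 0.01 for all genes, and 0.26 in MRL/MpJ+/+ against AKR/N, beside 0.01. Single arrays weighed on these medians and counts: the first median was 0.0545 without C57BL/6 replicate 1, and the second -0.0191 without AKR/N replicate 2. The count of 3 was 1 without any 1 of the 4 arrays compared, and the count of 2 was 0 without AKR/N replicate 1 or C57BL/6 replicate 2 and 1 without any other array. The count of 1 was 2 without C57BL/6 replicate 2. Arrays did not overlap for 5, 6 and 6 of the 9 genes in these comparisons, near the 55.6%, 54.7% and 54.6% of all genes.

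The largest strain difference in the wider pathway was that of Mybl1, which encodes the transcription factor A-MYB. On the brighter of its 2 probe sets Mybl1 stood at 461 and 413 units in MRL/MpJ+/+, 53.9 and 55.8 in AKR/N, and 56.1 and 85.7 in C57BL/6. On the dimmer it stood at 144 and 109 units in MRL/MpJ+/+, 34.0 and 27.5 in AKR/N, and 27.4 and 36.6 in C57BL/6. On both probe sets the MRL/MpJ+/+ arrays lay far above the other 4, and AKR/N and C57BL/6 lay close together. Against C57BL/6, Mybl1 rose in MRL/MpJ+/+ by 2.40 (SE 0.16, adjusted p = 7.44e-06) on the brighter and by 1.56 (SE 0.19, adjusted p = 0.00049) on the dimmer probe set. Against AKR/N the rise was 2.67 (adjusted p = 4.83e-06) and 1.60 (adjusted p = 0.00066). AKR/N differed from C57BL/6 by -0.27 on the brighter (adjusted p = 0.341). The call held under all 16 alternatives in both comparisons. On the log2 scale the rise lay between 1.90 and 2.65 against C57BL/6 and between 2.07 and 2.97 against AKR/N. The ratios of means on the brighter probe set were 6.16 against C57BL/6 and 7.97 against AKR/N. The sequences of the probes were not used here, so what each probe set covers of Mybl1 is not described.

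In MRL/MpJ+/+ the fold changes of the members ran from 0.01 for Mael to 0.46 for Pld6 against C57BL/6, and from -0.08 for Mael to 0.87 for Pld6 against AKR/N. Whether they are related to Mybl1 was not tested. Tcfl5, another transcription factor of spermatocytes, was picked after its values were seen and differed by 0.03 in MRL/MpJ+/+ against C57BL/6 (95% interval -0.10 to 0.17) and by 0.03 between MRL/MpJ+/+ and AKR/N (-0.11 to 0.16).

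Of 39 further genes listed for piRNA synthesis, germ granules and their regulation, 35 had a probe set of their own and 34 were tested. Piwil4, the PIWI protein MIWI2 of fetal germ cells, was the one that did not pass the filter, at 0.204 to 10.5 units over its 2 probe sets and 6 arrays. MRL/MpJ+/+ against C57BL/6 had 3 genes higher (Mybl1, Tdrd12 and Dicer1) and 1 lower (Prmt5) of 34. AKR/N against C57BL/6 had 2 higher (Dnmt3l and Adad1) and 1 lower (Prmt5), and MRL/MpJ+/+ against AKR/N had 5 higher (Mybl1, Tdrd12, Gpat2, Stk31 and Dazl) and none lower. Over all genes tested, 12.2%, 11.9% and 8.74% were called in these comparisons, so the first and second counts were no higher than the share of all genes. This list, too, was chosen with earlier results of these data known. The medians over the 34 genes were 0.06, 0.00 and 0.04. The genes not called lay between -0.41 and 0.31, between -0.39 and 0.38 and between -0.48 and 0.49 in the 3 comparisons.

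Tdrd12, Gpat2, Stk31 and Dazl rose in MRL/MpJ+/+ against AKR/N, and Tdrd12 also against C57BL/6. Tdrd12, a Tudor protein and helicase of secondary piRNA synthesis, stood at 542 and 525 units in MRL/MpJ+/+, 354 and 386 in AKR/N, and 375 and 362 in C57BL/6. Only the MRL/MpJ+/+ arrays stood apart. It rose in MRL/MpJ+/+ by 0.51 both against C57BL/6 (SE 0.0846, adjusted p = 0.00331) and against AKR/N (adjusted p = 0.00524). The second call was lost when MRL/MpJ+/+ replicate 1 (0.0509) or AKR/N replicate 1 (0.0566) was left out. Gpat2, a mitochondrial acyltransferase family protein that binds MILI, stood at 405 and 442 units in MRL/MpJ+/+, 294 and 310.2 in AKR/N, and 355 and 362 in C57BL/6. Its 3 strains did not overlap, in the same order as Pld6. Gpat2 rose by 0.47 in MRL/MpJ+/+ against AKR/N (SE 0.0881, adjusted p = 0.0104, and 0.056 to 0.0997 without MRL/MpJ+/+ replicate 2 or either AKR/N array).

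Stk31, a Tudor protein with a kinase domain, stood at 725 and 639 units in MRL/MpJ+/+, 501 and 487 in AKR/N, and 587 and 529 in C57BL/6. Both MRL/MpJ+/+ arrays were above all others. It rose by 0.45 in MRL/MpJ+/+ against AKR/N (SE 0.0894, adjusted p = 0.0134), and its second probe set by 0.34 (adjusted p = 0.0424). Against C57BL/6 the second probe set was called as well (0.39, adjusted p = 0.0165), and the first was not (0.28, adjusted p = 0.0757). The first call was lost without MRL/MpJ+/+ replicate 1 (adjusted p = 0.117) or either AKR/N array (0.0716 and 0.107). Dazl, an RNA binding protein that germ cells need for translation, stood at 1102 and 1118 units in MRL/MpJ+/+, 935 and 688 in AKR/N, and 998 and 922 in C57BL/6. AKR/N replicate 2 was the lowest. Dazl rose by 0.46 in MRL/MpJ+/+ against AKR/N (SE 0.118, adjusted p = 0.0432), and by 0.40 on its second probe set (adjusted p = 0.0472). That second probe set fell in AKR/N against C57BL/6 by 0.52 (adjusted p = 0.0114), where the first differed by -0.25 (adjusted p = 0.226). The first value was 0.24 without AKR/N replicate 2, and the call was lost without any 1 of 5 arrays, all but AKR/N replicate 1 (adjusted p = 0.0608 to 0.264).

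Prmt5, the methyltransferase that places the arginine marks through which Tudor proteins bind PIWI proteins, had its highest signal in C57BL/6. Its intensity was 224 and 239.8 units in MRL/MpJ+/+, 195 and 201 in AKR/N, and 298 and 303 in C57BL/6. The arrays of the 3 strains did not overlap. Prmt5 fell by 0.57 in AKR/N against C57BL/6 (SE 0.0944, adjusted p = 0.00357, at most 0.046 under the 16 alternatives) and by 0.35 in MRL/MpJ+/+ (adjusted p = 0.0391). The call in MRL/MpJ+/+ was lost without any 1 of the 6 arrays (adjusted p = 0.0602 to 0.202). Wdr77, the partner of Prmt5, was also picked after its values were seen and differed on its brightest probe set by 0.05 in MRL/MpJ+/+ (95% interval -0.23 to 0.32) and by -0.03 in AKR/N (-0.31 to 0.25) against C57BL/6.

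Dicer1, which cuts the precursors of microRNAs and not those of piRNAs, rose by 0.72 in MRL/MpJ+/+ against C57BL/6 (SE 0.156, adjusted p = 0.0159). It stood at 88.3 and 100.2 units in MRL/MpJ+/+, 69.6 and 55.5 in AKR/N, and 49.4 and 52.8 in C57BL/6. Its second, dimmer probe set went the opposite way by -0.15 (adjusted p = 0.731), the mean of both differed by 0.28 (adjusted p = 0.233), and the call was lost without any 1 of the 4 arrays compared (0.0525 to 0.114). Dnmt3l, the DNA methylation cofactor that acts with the pathway in fetal male germ cells, stood at 83.3 and 83.5 units in MRL/MpJ+/+, 132 and 115 in AKR/N, and 84.3 and 61.4 in C57BL/6. Dnmt3l rose by 0.66 in AKR/N against C57BL/6 (SE 0.155, adjusted p = 0.0223, and 0.0733 to 0.161 without either AKR/N array or C57BL/6 replicate 2). Adad1, an RNA binding protein of the testis, rose there by 0.21 (SE 0.0565, adjusted p = 0.0381, and 0.111 to 0.207 without any 1 of the 4 arrays compared), at 3161 and 3218 units in AKR/N against 2730.1 and 2765 in C57BL/6.

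**Figure D3:**
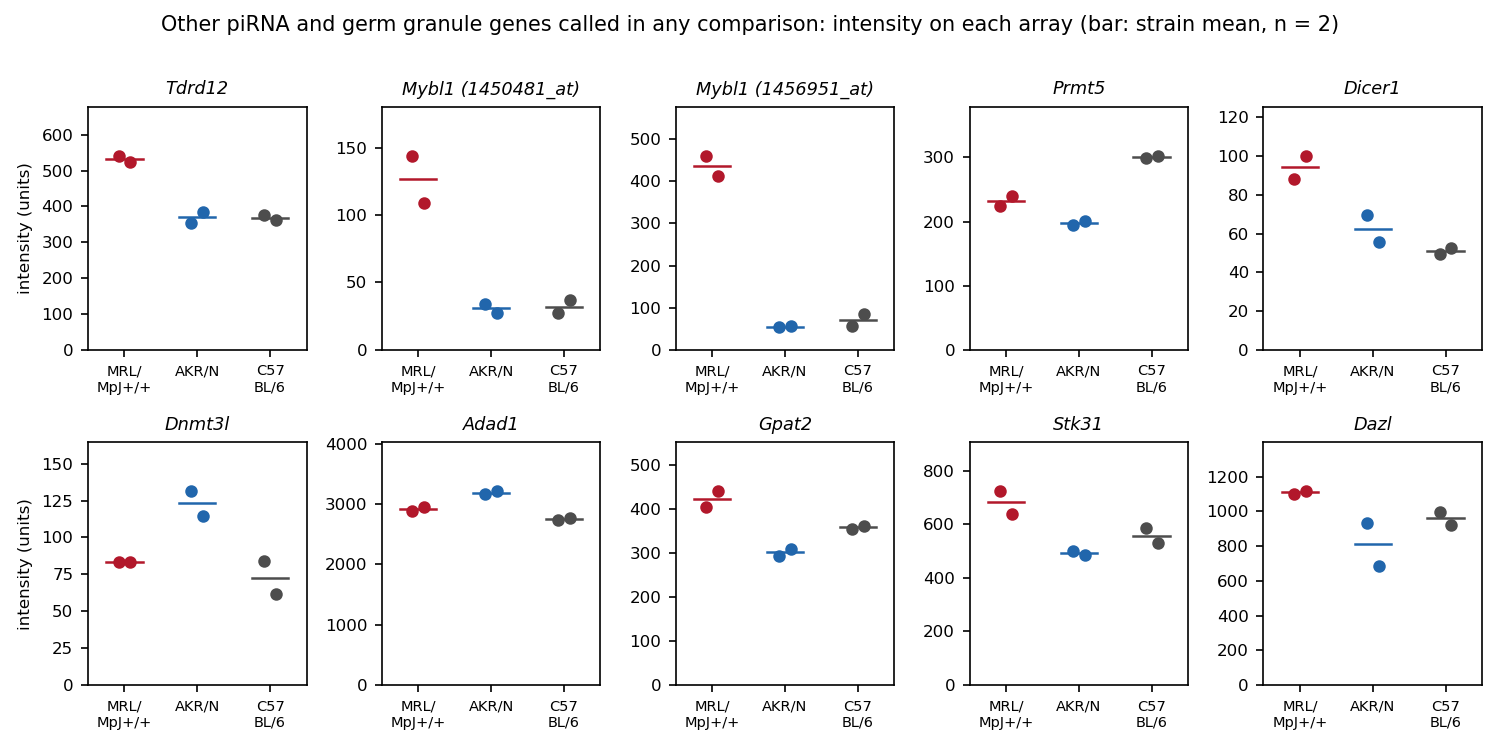
Intensity in units, on a linear axis from 0, of the 9 other pathway genes called in any comparison, by strain, with both probe sets of Mybl1; points are arrays and bars the mean of 2. The MRL/MpJ+/+ points of Mybl1 lie at 461 and 413 units on the brighter probe set, where no point of the other strains is above 85.7.

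**Figure D4:**
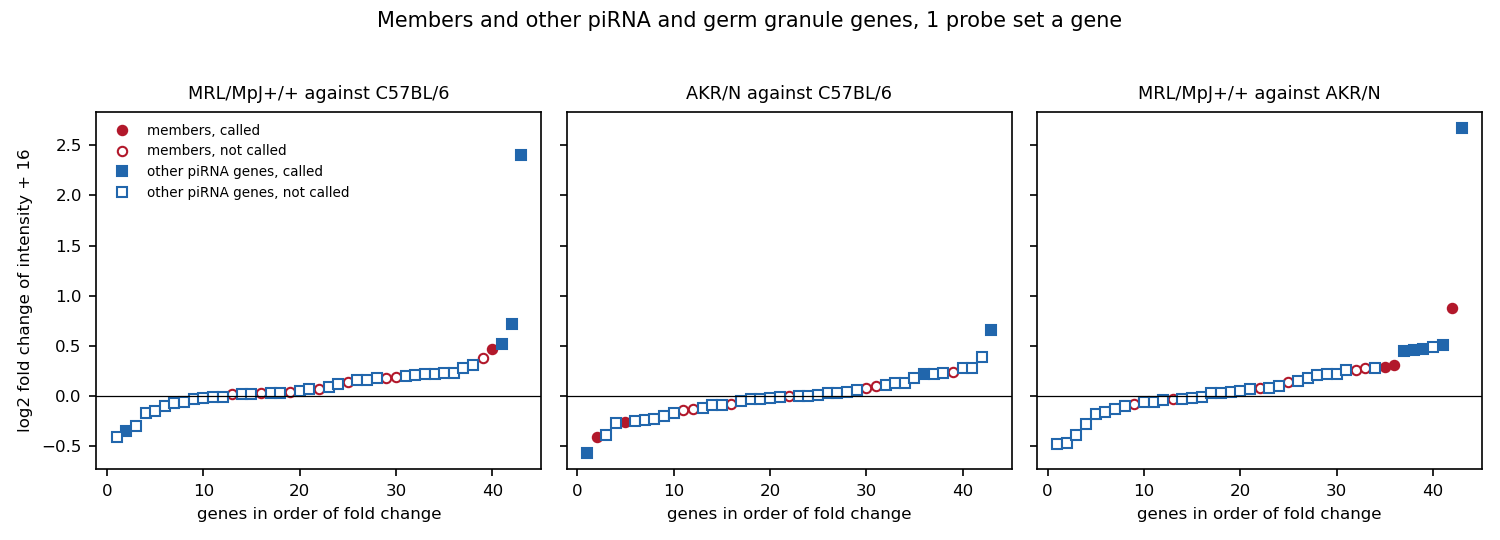
Log2 fold changes of intensity + 16 of the 9 members (circles) and the 34 other genes (squares), 1 probe set a gene, ordered within each of the 3 comparisons; filled symbols passed an adjusted p under 0.05. Mybl1 stands alone at 2.40 and 2.67 in the panels with MRL/MpJ+/+, and the other genes lie between -0.57 and 0.87.

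Over the 6 arrays, the tested genes whose log2 values ran most like those of Pld6 were Vps37c (Pearson r = 0.996), Bcdin3d (0.995) and Gm26588 (0.994). Those most like Piwil1 were Pcnx4 (0.996), Scn1a (0.995) and Adam8 (0.994), of which Scn1a was dim, at 11.6 to 19.5 units. Those most like Piwil2 were Eral1 (0.997), Rbm27 (0.996) and Hectd4 (0.994). They were picked as the highest of 14434 genes, of which 119, 87 and 155 had r above 0.95, and the 6 points share arrays, mice and scaling, so these values are a description.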

How the data were processed

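Total RNA of whole testes from 6 mice, 2 per strain, was isolated with Trizol, turned into labelled RNA in one cycle and hybridised, per the labels' protocols. The authors deposited 1 linear intensity per probe set. From the values, the mean of every array after trimming 2% at both ends is 125.001. Summary software and detection calls: not given in the sources used here. The authors' scaling was kept. After removing 64 of 45101 probe sets as controls, those in the upper part of the array (beyond the 40th percentile on 2 or more arrays) were tested, 29692 in all. By the platform annotation, 34945 probe sets carry 1 symbol, 932 more than that and 9160 none at all. Each of 14477 genes was represented by the brightest of its tested probe sets on average.

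Log2(intensity + 16) was modelled by strain over the 6 arrays in limma 3.58.1 (R 4.3.3), with a variance trend in eBayes and 3 residual and 7.58 prior degrees of freedom, so the strains share 1 estimate of the spread. The code was first tested on simulated data. The members and the lists (39 other pathway genes and 10 marker lists) were chosen with earlier results of these data known. Named were all members and called genes of the other list (up to 6 per comparison, by adjusted p). The 3 genes most correlated with each of the 3 members of the smallest adjusted p were named too. Outside this rule, Tcfl5, Wdr77, Kif17, Ranbp9 and Rnf17 were picked after their values were seen. Also named were Piwil4, which did not pass the filter, single markers, and the tested neighbours of Pld6 and Mybl1. The alternatives tried were median centring, quantile normalization, a 60th percentile filter or none, pseudocounts of 1 and 64, no variance trend, only the arrays compared, the replicate number as a block, the mean of a gene's probe sets, and leaving out each array.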

Additional observations from a re-analysis of the deposited data

How the results depend on the processing

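Of 18 called values of single genes, none changed sign under 16 alternatives each; of these 288 values, 214 stayed called and 74 did not pass the threshold. Of 336 values of members without a call, 5 passed it, all of Tdrd1, and 16 changed sign. Counts below are for MRL/MpJ+/+ against C57BL/6, AKR/N against C57BL/6 and MRL/MpJ+/+ against AKR/N in that order. The counts of probe sets called were 2975, 2960 and 2052, and 1212, 1138 and 421 without the variance trend; the third was 1327 without the filter. Leaving out 1 array gave 1463 to 2538, 1270 to 2607 and 657 to 2173. The members called (1, 2 and 3 genes) were 0, 0 and 1 without the variance trend. They were 2 in the first with median centring, the 60th percentile filter, the replicate block or the mean of probe sets, 1 in the second with median centring, no filter or only the arrays compared, and 1 in the third without the filter. Leaving out 1 array gave 1 to 2, 0 to 1 and 1 to 3 members. The other pathway genes called (4, 3 and 5) were 1, 1 and 1 without the variance trend; the second was 1 without the filter and 5 with the replicate block; leaving out 1 array gave 2 to 3, 1 to 3 and 2 to 4. The member median of 0.14 was 0.19 with median centring, 0.0701 as the mean of probe sets and 0.0545 to 0.156 with 1 array left out; that of -0.08 was -0.104 to -0.0191 with 1 array left out, and that of 0.26 was 0.18 as the mean of probe sets and 0.19 to 0.29 with 1 array left out. With median centring, 39.4%, 39.7% and 51.4% of called probe sets were lower, against 49.4%, 49% and 53.5% as reported. The causes of these moves were not tested, beyond that fewer arrays leave fewer degrees of freedom. Same-numbered arrays of different strains deviated together at r = 0.0425 to 0.0493 over probe sets, so the numbers were not taken to pair the arrays; with the replicate block 3510, 3492 and 2549 probe sets were called, and among the members the call of Tdrd1 changed. With 2 arrays per strain, a value without a call does not show that strains are alike.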

Other observations

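Genes next to Pld6 and Mybl1 in RefSeq order (GRCm38.p6, tested genes only, 3 on each side) were looked up after the values of these 2 genes were seen. Next to Pld6 on chromosome 11, 1700007J10Rik averaged 69.6 units in MRL/MpJ+/+, 31.2 in AKR/N and 98.5 in C57BL/6, and fell in AKR/N against C57BL/6 by 1.28 (adjusted p = 0.000465). Cops3, a subunit of the COP9 signalosome and the second gene on the other side, averaged 1711 units in MRL/MpJ+/+, 1339 in AKR/N and 1888 in C57BL/6, and fell in AKR/N by 0.49 (adjusted p = 0.0015). Both were also higher in MRL/MpJ+/+ than in AKR/N, by 0.86 (adjusted p = 0.0081) and 0.35 (adjusted p = 0.0144), as was Pld6. In MRL/MpJ+/+ against C57BL/6, where Pld6 rose by 0.46, they differed by -0.42 (adjusted p = 0.122) and -0.14 (adjusted p = 0.259), without a call. Of all genes, 11.9% were called in AKR/N against C57BL/6 and 8.74% in MRL/MpJ+/+ against AKR/N. Mprip, Flcn and Nt5m had no call in any comparison, and 4933439C10Rik fell by 0.74 in MRL/MpJ+/+ against C57BL/6 (adjusted p = 0.0399). Around Mybl1 on chromosome 1, the neighbours Vxn and Vcpip1 differed by -0.11 and 0.00 in MRL/MpJ+/+ against C57BL/6, without a call. Adhfe1 rose by 0.75 in MRL/MpJ+/+ against AKR/N (adjusted p = 0.0338), and no other of the 6 neighbours of Mybl1 was called in any comparison.

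Probe sets other than the one that represents a gene were called for Kif17, Ranbp9 and Rnf17, which were named after their values were seen. Kif17, a kinesin of spermatids, fell in MRL/MpJ+/+ against C57BL/6 by 0.30 on one probe set (adjusted p = 0.0389) and against AKR/N by 0.43 on another (adjusted p = 0.0217), which rose in AKR/N against C57BL/6 by 0.34 (adjusted p = 0.0492). The brightest probe set of Kif17 was not called in any comparison. Ranbp9 fell in MRL/MpJ+/+ against C57BL/6 by 0.24 (adjusted p = 0.0421), where its brightest probe set differed by 0.02 (adjusted p = 0.916), and Rnf17, a Tudor protein, in AKR/N against C57BL/6 by 0.29 (adjusted p = 0.0434), while its brightest probe set differed by 0.03 (adjusted p = 0.887).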
